A study of Mus musculus with 4 samples.

Results

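Replication-dependent histone genes encode the linker histone H1 and the core histones H2A, H2B, H3 and H4, and mouse chromosomes carry them in the clusters Hist1, Hist2, Hist3 and Hist4. A row of the deposited expression table was counted as a member when at least 1 of its gene symbols began with Hist1h, Hist2h, Hist3h or Hist4h and when Cuffdiff had given it the status OK (tested) or NOTEST (too few alignments to test). This gave 73 rows of 27542 in all, with 64 different symbols. Hist1 on chromosome 13 supplied 57 rows, Hist2 on chromosome 3 supplied 12, Hist3 on chromosome 11 supplied 3 and Hist4 on chromosome 6 supplied 1. Rows were chosen by name and by this status, which depends on the number of alignments, and not by level or by difference.

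The study knocked down T-UCstem1, a long noncoding RNA with an ultraconserved element, in the mouse embryonic stem (ES) line TBV2. RNA sequencing covered 3 clones with the knockdown (T-UCstem1 KD, here KD) and 1 control (labelled N.T., here NT). Both conditions had serum and LIF in the medium, and the design text also names feeder cells and a high density. How the knockdown was made is not stated there, and T-UCstem1 itself was not analysed here. The authors deposited 1 FPKM (a fragment count scaled by transcript length and by all mapped fragments) per gene for the KD, combined over the 3 clones, and 1 for NT. No SD or n can therefore be given for any level, and the spread between clones or between control cultures cannot be read from these values.

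Cells make these histones mainly in S phase, when new DNA has to be packed into nucleosomes, and ES cells, which spend much of their cycle in S phase, need a large supply. Most of the genes have no intron, and their mRNA classically ends in a short stem-loop bound by SLBP instead of a poly(A) tail. Some members can also give longer, polyadenylated mRNAs, and histone variants such as H3.3 and H2A.Z come from ordinary polyadenylated genes outside the clusters. The labels state total RNA and a standard Illumina library preparation, and a selection of poly(A)+ RNA is not stated in them.

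The stem-loop is shown first, because the point at which a transcript ends separates the classical histone mRNA from the longer forms. In GENCODE M21 (GRCm38), 63 of the 64 symbols had a protein-coding transcript, and the longest one was taken for each. A stem of 6 bases on each side and a loop of 4 bases, downstream of the coding part, was found in 42 of them. Only the coding strand was searched, for the known histone stem-loop shape with pyrimidines in the rising stem. The 8 different forms are given 5′ to 3′ as DNA on the coding strand, with the loop in capitals and a gene that carries each form.
Hist3h2a: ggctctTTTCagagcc
Hist1h4h: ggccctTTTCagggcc
Hist1h3c: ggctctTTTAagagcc
Hist1h4i: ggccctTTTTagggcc
Hist1h4b: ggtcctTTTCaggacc
Hist1h4a: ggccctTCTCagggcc
Hist1h3g: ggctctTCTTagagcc
Hist2h2ac: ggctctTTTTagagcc

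The form of Hist3h2a (chr11:58955172-58955187, plus strand) was shared by 22 genes of H1, H2A, H2B and H3. The form of Hist1h4h (chr13:23531458-23531473, plus strand) was found in 7 H4 genes, and that of Hist1h3c (chr13:23745047-23745062, minus strand) in 6 genes. Hist1h4i (chr13:22040966-22040981, minus strand) shared its form with Hist2h4, and Hist1h4b (chr13:23757366-23757381, plus strand) with Hist1h4j. Those of Hist1h4a (chr13:23760800-23760815, minus strand), Hist1h3g (chr13:23535889-23535904, plus strand) and Hist2h2ac (chr3:96220418-96220433, minus strand) were each found in 1 gene. All 12 H4 genes with a stem-loop had a stem beginning ggccct (10 genes) or ggtcct (2 genes), and all 30 genes of the other types had ggctct. The annotated transcript ran at least 100 bases past the stem-loop in 22 genes and ended sooner after it in 20. In 17 genes without a match the annotation stopped within 100 bases of the coding part, so a stem-loop may lie outside it. The other 4, Hist1h2bc, Hist2h2be, Hist1h2bp and Hist1h2br, had a longer end in which the pattern was not found. For Hist1h2bc the annotated mRNA is spliced from 2 exons.

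Cell identity and depth were examined before the histone values. The ES cell markers were high in both conditions, with Pou5f1 at 1078 FPKM in KD cells and 1036 FPKM in NT, and none of the 9 rows of that list was called by the authors. Of 9 tested feeder fibroblast markers 4 were called higher in the KD, none was called lower, and the 12 markers summed to 68.4 FPKM in KD cells and 18.2 FPKM in NT. Over all 15477 tested rows 0.963% were called higher in the KD and 0.187% lower. Among the feeder markers Lum was listed at 0 in both conditions and Col1a1 was at 3.63 FPKM in KD cells and 0.920 FPKM in NT. The part of feeder cells in the histone values was not tested. The number of reads is not stated. Among 33 rows that lie on the strand of their symbol and have annotated transcripts of 350 to 600 bases, the lowest value above 0 was 0.0986 FPKM in the KD (Hist1h2ba) and 0.141 FPKM in NT (Hist1h2ad). A row of Hist1h3g on the other strand was lower still in NT, at 0.0752 FPKM. How many fragments such a value stands for is not known, so the counting error of low rows cannot be given.

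The clustered histone genes were low in both conditions, and no member was called different. Their 73 rows summed to 149 FPKM in KD cells and 105 FPKM in NT. Hist3h2a and Hist1h2bc made up 35.6% of the KD sum and 30.3% of the NT sum. The remaining rows summed to 95.9 FPKM in KD cells and 73.2 FPKM in NT. Only 34 rows reached 1 FPKM in either condition and 7 reached 5 FPKM. Rows listed at 0 numbered 6 in the KD and 11 in NT, of which 5 were at 0 in both.

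**Figure D1:**
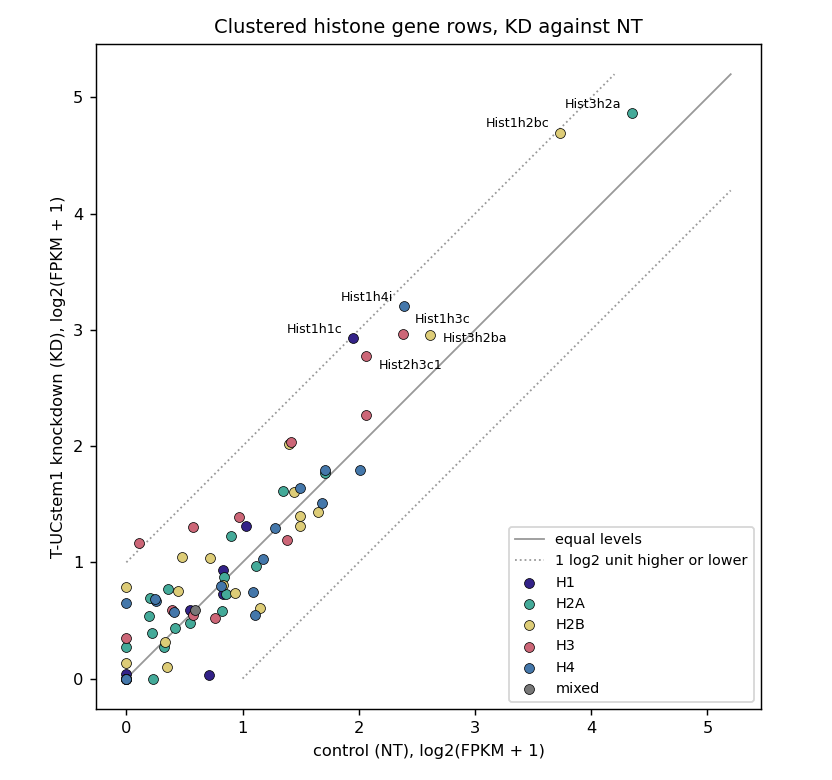
Level of each of the 73 clustered histone gene rows in the KD (vertical axis) and in NT (horizontal axis), both as log2(FPKM + 1) and coloured by histone type; the solid line marks equal levels and the dotted lines a difference of 1 log2 unit. Most rows lie below 2 on both axes, and Hist3h2a and Hist1h2bc stand at the top right, above the line of equal levels.

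The comparison of KD with NT asks whether the histone supply differed when T-UCstem1 was lowered, in a study whose title names proliferation and self-renewal. Of 41 tested members the authors' deposited table called 0, where 1.15% of all 15477 tested rows were called, 0.963% higher and 0.187% lower in the KD. At the deposited Cuffdiff p of 0.05 or less without adjustment there were 2 members, Hist1h1c and Hist1h2bc, both higher in the KD, where 8.88% of all tested rows passed in either direction and 6.1% passed with the KD higher. Each difference below is log2((KD FPKM + 1)/(NT FPKM + 1)), positive where the KD is higher. The 34 rows with at least 1 FPKM in either condition had a median difference of 0.23, with quartiles of -0.15 and 0.59. The median was 0.056 over all 73 rows and 0.71 over the 7 rows with at least 5 FPKM in either condition. Among those 7, Hist1h4i, Hist1h3c, Hist2h3c1 and Hist1h1c reached 5 FPKM only in the KD, which favours a positive difference. Hist3h2a, Hist1h2bc and Hist3h2ba reached it in both conditions, with differences of 0.51, 0.96 and 0.35. Over the whole table the 13462 rows with at least 1 FPKM in either condition had a median of 0.010. The 6431 of them that stayed below 10 FPKM had a median of 0.013 with quartiles of -0.22 and 0.28. The difference was above 0 in 23 of the 34 histone rows and below 0 in 11, where 51.4% of all rows with at least 1 FPKM were above 0. Hist1h3h, Hist1h3a, Hist1h2ab, Hist1h2be, Hist1h2bh and the other-strand row of Hist1h3g reached 1 FPKM only in the KD, which favours a positive difference. Hist1h2bj, Hist1h4f and Hist1h4c reached it only in NT, which favours a negative one. A difference of 1 or more was reached by 1 row, against 3.16% of all rows, and a difference of -1 or less by 0 rows, against 0.973% of all rows. With a pseudocount of 0.1 FPKM in place of 1, these counts were 5, against 5.83% of all rows, and 2, against 2.87%. Without replicate values these counts describe the 2 deposited conditions, and they are not a test.

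By histone type the medians at the minimum of 1 FPKM were not alike. H3 rows had the highest median among the core histones, at 0.61 over 8 rows, of which 7 lay above 0. Among them Hist1h3h, Hist1h3a and the other-strand row of Hist1h3g reached 1 FPKM only in the KD, which favours a positive difference. A Hist1h3g row and the Hist2h3c1 row of H3 lie on the other strand than their symbol. H2A rows had a median of 0.26 over 5 rows and H2B rows of 0.24 over 10 rows, with 4 and 6 of them above 0. The H2A median is the value of a Hist2h2aa2 row, which also lies on the other strand. H4 rows had a median of -0.15 over 9 rows, with 4 above 0 and 5 below. Hist1h4f and Hist1h4c reached 1 FPKM only in NT, which favours a negative difference. Without this minimum the median was 0.35 over all 13 H3 rows, the value of Hist2h3b. Over all 15 H4 rows it was 0.017, the value of Hist1h4m, so the negative H4 median depended on the minimum. The 2 H1 rows with at least 1 FPKM in either condition were both above 0. Summed over all their rows, on either strand, H3 stood at 26.9 FPKM in KD cells and 16.8 FPKM in NT. H4 stood at 23.7 FPKM in KD cells and 19.97 FPKM in NT. H2A stood at 40.1 FPKM in KD cells and 29.7 FPKM in NT, H2B at 47.6 FPKM in KD cells and 31.4 FPKM in NT, and H1 at 10.2 FPKM in KD cells and 6.57 FPKM in NT. No difference between types was tested, since members of a type are not replicates and share sequence.

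**Figure D2:**
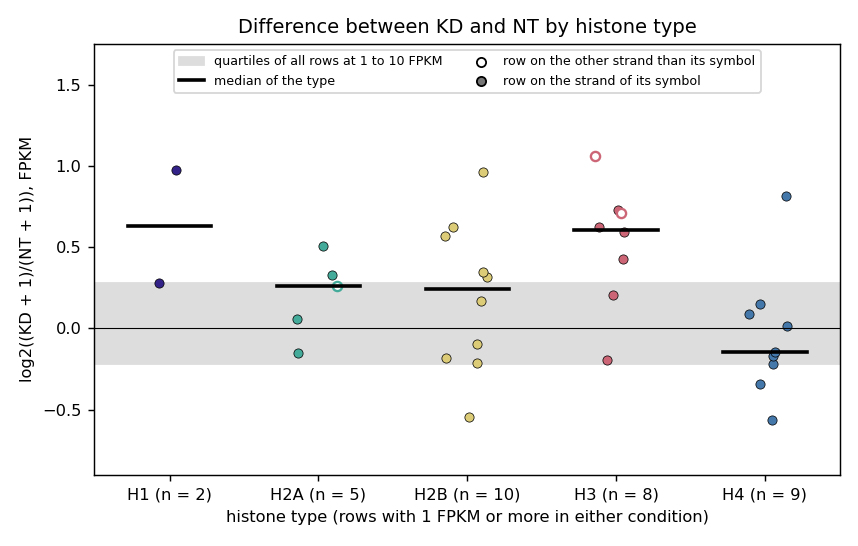
Difference between KD and NT, as log2((KD + 1)/(NT + 1)) in FPKM, for the 34 rows with at least 1 FPKM in either condition, by histone type; black bars are medians, open points are rows on the other strand than their symbol, and the grey band spans the quartiles of all table rows at 1 to 10 FPKM. The H3 median of 0.61 lies above the band and the H4 median of -0.15 lies inside it.

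Linker histones bind the DNA between nucleosomes, and the cluster holds their main somatic genes. Hist1h1c, which encodes H1.2 (chromosome 13, 23830675 to 23832221, mm9), was at 6.61 FPKM in KD cells and 2.87 FPKM in NT. Its difference was 0.98, with a p of 0.04895 and a q of 0.558 from Cuffdiff in the authors' deposited table, so it was not called. Hist1h1a, which encodes H1.1, was at 1.48 FPKM in KD cells and 1.04 FPKM in NT, a difference of 0.28. The others were low and close in both conditions. Hist1h1d, which encodes H1.3, stood at 0.911 FPKM in KD cells and 0.775 FPKM in NT. Hist1h1b (H1.5) was at 0.660 FPKM in KD cells and 0.777 FPKM in NT, and Hist1h1e (H1.4) at 0.506 FPKM in KD cells and 0.466 FPKM in NT. The testis gene Hist1h1t was at 0.0301 FPKM in KD cells and listed at 0 in NT.

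Among H2A genes Hist3h2a stood far above the rest. This gene (chromosome 11, 58768186 to 58773322, mm9) was at 28.1 FPKM in KD cells and 19.5 FPKM in NT, a difference of 0.51 with a q of 0.999 from Cuffdiff in the authors' deposited table. Its annotated transcript runs 1643 bases past the stem-loop printed above and has a poly(A) signal, AATAAA or ATTAAA, in its last 60 bases. The next H2A gene, Hist1h2ae, was at 2.40 FPKM in KD cells and 2.27 FPKM in NT. Hist2h2aa2, a Hist2 gene with near-identical copies, had a row at 2.06 FPKM in KD cells and 1.55 FPKM in NT. That row lies on the other strand than its symbol. The other H2A rows stayed below 1.5 FPKM in both conditions. Hist1h2aa, a testis gene, was at 0.207 FPKM in KD cells and listed at 0 in NT.

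H2B had a single member of comparable level. Hist1h2bc (chromosome 13, 23776067 to 23784349, mm9) was at 24.96 FPKM in KD cells and 12.3 FPKM in NT, and its KD level was 2.03 times that of NT. The difference was 0.96 on the log2(FPKM + 1) scale, with a p of 0.04365 and a q of 0.531 from Cuffdiff in the authors' deposited table. Hist3h2ba, the neighbour of Hist3h2a, was at 6.78 FPKM in KD cells and 5.11 FPKM in NT. Hist2h2bb was at 3.06 FPKM in KD cells and 1.63 FPKM in NT, and Hist2h2be at 1.64 FPKM in KD cells and 1.82 FPKM in NT. Hist1h2be, whose annotated transcript runs 1861 bases past the stem-loop and whose row spans 37456 bases of the cluster, was at 1.07 FPKM in KD cells and 0.398 FPKM in NT. Lower values in the KD were seen for Hist1h2bk, at 1.71 FPKM in KD cells and 2.14 FPKM in NT, and for Hist1h2bj, at 0.520 FPKM in KD cells and 1.22 FPKM in NT. The difference of -0.54 for Hist1h2bj was among the 5 lowest of the 34 rows with at least 1 FPKM. Hist1h2ba, a testis H2B gene, was at 0.0986 FPKM in KD cells and listed at 0 in NT.

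The H3 genes of the clusters encode H3.1 and H3.2, the forms laid down during replication. Hist1h3c (chromosome 13, 23834787 to 23837390, mm9) was the highest, at 6.83 FPKM in KD cells and 4.19 FPKM in NT, a difference of 0.59. A row named Hist2h3c1 followed at 5.84 FPKM in KD cells and 3.17 FPKM in NT, a difference of 0.71 with a q of 0.883 from Cuffdiff in the authors' deposited table. That row lies on the other strand than its symbol. Hist1h3e was at 3.10 FPKM in KD cells and 1.67 FPKM in NT, and Hist1h3h at 1.46 FPKM in KD cells and 0.484 FPKM in NT. Hist1h3g was closer in both conditions, at 3.83 FPKM in KD cells and 3.18 FPKM in NT. Only Hist1h3i lay below 0 among H3 rows with at least 1 FPKM, at 1.28 FPKM in KD cells and 1.61 FPKM in NT. Below 1 FPKM, Hist1h3b was at 0.434 FPKM in KD cells and 0.700 FPKM in NT, and Hist1h3f at 0.458 and 0.488 FPKM. Hist1h3d, at 0.506 FPKM in KD cells and 0.315 FPKM in NT, and Hist2h3b, at 0.274 and 0 FPKM, went the other way. The H3 genes thus had no common direction. None of these rows was called, and they are a description of 2 values per gene.

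H4 proteins come from many gene copies, and here 1 copy stood apart. Hist1h4i (chromosome 13, 22131432 to 22133231, mm9) was at 8.22 FPKM in KD cells and 4.24 FPKM in NT, a difference of 0.82 with a q of 0.999 from Cuffdiff in the authors' deposited table. Its annotated transcript runs 330 bases past the stem-loop and has a poly(A) signal in the last 60 bases. Hist1h4h was at 2.46 FPKM in KD cells and 3.03 FPKM in NT, and Hist1h4b at 2.46 FPKM in KD cells and 2.26 FPKM in NT. The lowest differences of the family were those of Hist1h4f, at 0.457 FPKM in KD cells and 1.16 FPKM in NT, and Hist1h4c, at 0.673 FPKM in KD cells and 1.12 FPKM in NT. Both had too few alignments to be tested by the authors. Hist4h4, the only member on chromosome 6, was at 0.738 FPKM in KD cells and 0.754 FPKM in NT, while the 603 rows of chromosome 6 with at least 1 FPKM had a median difference of 0.26. For chromosomes 13, 3 and 11 that median was -0.038, 0.012 and 0.034.

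**Figure D3:**
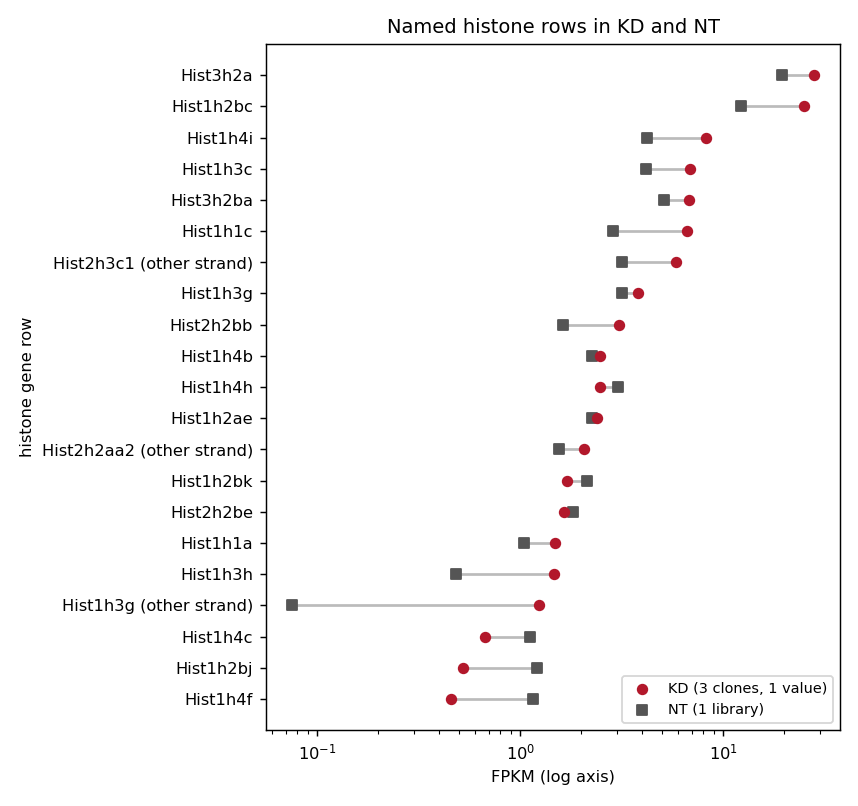
FPKM on a log axis of 21 histone rows, in the KD (circles) and in NT (squares), ordered by the KD level. In the 8 rows with the highest KD level, from Hist3h2a to Hist1h3g, the KD value exceeds the NT value, and Hist1h4c, Hist1h2bj and Hist1h4f at the bottom show the reverse. Rows were chosen partly by their difference and ordered by the KD level, which favours this arrangement.

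By cluster the medians were 0.16 over 28 rows of Hist1, 0.44 over 4 rows of Hist2 and 0.43 over 2 rows of Hist3. The rows of Hist2 include those of Hist2h2aa2 and Hist2h3c1 on the other strand than their symbol. In sums, Hist1 stood at 97.9 FPKM in KD cells and 69.7 FPKM in NT, Hist2 at 15.4 FPKM in KD cells and 9.64 FPKM in NT, and Hist3 at 35.0 FPKM in KD cells and 24.8 FPKM in NT. Each of these sums was higher in the KD, and no cluster held a called row. The ratios of KD to NT sums were 1.40, 1.60 and 1.41 for Hist1, Hist2 and Hist3.

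Levels were set beside how far a transcript is annotated past its stem-loop. Among the 6 rows over 5 FPKM that lie on the strand of their symbol, 4 came from genes whose transcript runs at least 100 bases past the stem-loop and 1, Hist1h2bc, from a spliced transcript without a match. The remaining one, Hist1h3c, ends 74 bases past it. Of all 63 rows on the strand of their symbol, 21 came from transcripts that run on. Hist1h4i, Hist1h3c and Hist1h1c reached 5 FPKM only in the KD. Hist1h2ac, annotated 2010 bases past its stem-loop, was at only 0.391 FPKM in KD cells and 0.466 FPKM in NT. Medians of the classes were close. Transcripts that run on had a median of 1.04 FPKM in KD cells and 0.775 FPKM in NT over 21 rows, and those that end at the stem-loop 0.759 FPKM in KD cells and 0.910 FPKM in NT over 20 rows. Sums were 67.6 FPKM in KD cells and 46.8 FPKM in NT for the first class, and 27.97 FPKM in KD cells and 25.2 FPKM in NT for the second. The limit of 100 bases was chosen after the values had been seen, and annotated ends are those of GENCODE, not of these cells.

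**Figure D4:**
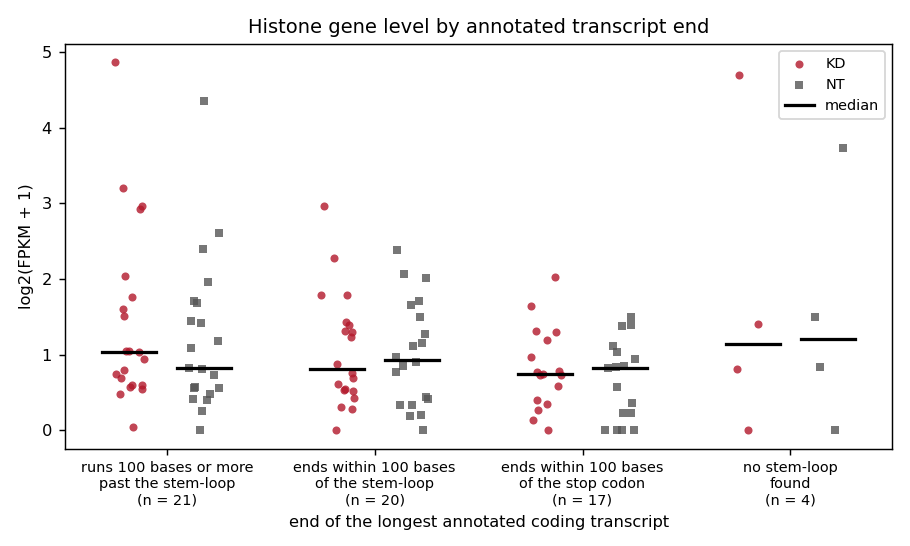
Level as log2(FPKM + 1) of each histone row on the strand of its symbol, by where its longest annotated coding transcript ends, with the KD left of NT in each class and black bars for medians. The class medians lie close to 1, and the highest points belong to transcripts that run on past the stem-loop or lack it.

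H2A and H2B genes often lie head to head and share the stretch between their starts. In 10 such pairs with 1 own-strand row for each partner, the gap was 175 to 305 bases in GRCm38. Hist1h2ac and Hist1h2bc differed most. Hist1h2bc was at 24.96 FPKM in KD cells and 12.3 FPKM in NT, whereas Hist1h2ac was at 0.391 FPKM in KD cells and 0.466 FPKM in NT. In the other 9 pairs both partners stayed below 2.5 FPKM in the KD. Hist1h2bc was 63.7 times Hist1h2ac in the KD and 26.4 times in NT, and these ratios rest on Hist1h2ac levels below 0.5 FPKM. Ratios within the other pairs are not given, because in several of them a partner lay below 0.5 FPKM or was listed at 0. Both partners differed between KD and NT in the same direction in 4 of the 10 pairs.

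**Figure D5:**
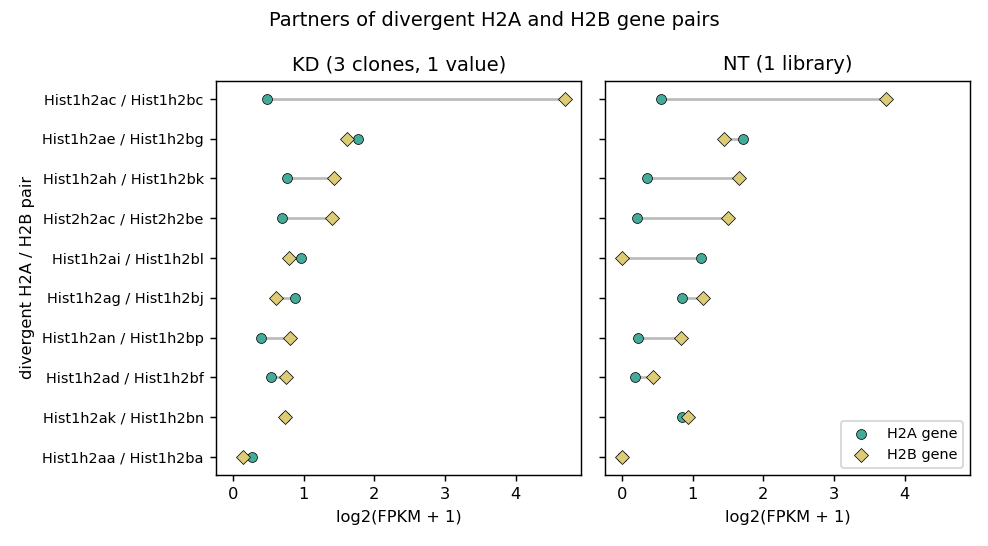
Levels as log2(FPKM + 1) of the partners of 10 divergent H2A and H2B pairs, in the KD (left) and in NT (right), with a grey line joining the partners. Hist1h2bc lies far from Hist1h2ac in both conditions, and the partners of the other pairs lie below 2.

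The stretch before Hist1h2ac is printed because both genes of that pair lie head to head around it and had unequal FPKM. It is the 250 bases before the start of Hist1h2ac in RefSeq (GRCm38.p6, chr13:23683960-23684209, minus strand), and capitals mark motif matches.
Hist1h2ac: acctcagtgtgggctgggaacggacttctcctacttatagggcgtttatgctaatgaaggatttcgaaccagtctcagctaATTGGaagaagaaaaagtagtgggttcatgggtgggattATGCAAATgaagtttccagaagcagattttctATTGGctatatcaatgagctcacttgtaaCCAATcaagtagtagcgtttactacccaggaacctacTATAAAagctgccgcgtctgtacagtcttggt

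The motifs searched on both strands were the octamer ATTTGCAT, known from H2B promoters as a site of Oct factors, the CCAAT box CCAAT and the TATA box TATAAA. No motif searched contains another. In the stretch above the octamer begins 130 bases before the Hist1h2ac start and reads ATGCAAAT there. CCAAT boxes begin 169, 98 and 69 bases before it and a TATA box 32 bases before it. RefSeq windows of 250 bases before to 50 after the start were found for 58 of the 64 symbols. Hist1h2bc had no such window and is not in the H2B counts. The octamer was present in 7 of 16 H2A windows and 7 of 16 H2B windows, in none of the 6 H1, 9 H3 and 12 H4 windows, and in 1.74% of all 32851 windows. CCAAT was present in every H1, H2A, H2B and H3 window and in 3 of 12 H4 windows, against 37.4% of all windows. TATAAA was present in 4 of 6 H1, 10 of 16 H2A, 8 of 16 H2B, 4 of 9 H3 and 8 of 12 H4 windows, against 13.6% of all. Windows of a head-to-head pair overlap, so 1 match can count for both partners.

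Several rows need care because of strand or shared sequence. Within a chromosome the table rows fall into runs of rising position, and 98.4% of single-symbol rows in the first run lie on the plus strand in GENCODE and 98.5% in the second on the minus strand. By this order 9 histone rows lay on the other strand than their symbol. They include 1 row each of Hist1h1c, Hist1h3g, Hist1h4j, Hist1h2ao, Hist1h2br, Hist2h2aa2 and Hist2h4, and both rows named Hist2h3c1. The row of Hist1h3g on the other strand, at 1.25 FPKM in KD cells and 0.0752 FPKM in NT, was the 1 row with a difference of 1 or more. Among rows with at least 1 FPKM, the 3 on the other strand all had differences above 0. The 31 on the strand of their symbol had a median difference of 0.17, with 20 above 0 and 11 below. The other-strand row of Hist1h1c was at 0.0246 FPKM in KD cells and 0.636 FPKM in NT. No source used here says whether counting used strand, so reads of overlapping rows may have been divided between them. Of 50-base stretches in the annotated transcripts, a median of 50.5% per gene occurred in no other gene. For Hist2h3c1, Hist2h3b, Hist2h2aa2 and Hist2h2bb that share was 0, and reads of such copies may have been split or merged. Hist1h2bc, Hist3h2a, Hist1h4i and Hist1h1c had shares of 69.4%, 68.5%, 71.1% and 91.5%. Hist3h2bb-ps is a pseudogene, at 0.0727 FPKM in KD cells and 0.273 FPKM in NT.

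Genes that make and handle histone mRNA were close in KD and NT. Of 18 tested rows of histone mRNA processing and transcription genes, none was called in either direction, where 1.15% of all tested rows were called. Their median difference was -0.056, with 8 rows above 0 and 10 below. Slbp, the stem-loop binding protein, was at 59.8 FPKM in KD cells and 62.5 FPKM in NT. Ncbp2, a subunit of the cap-binding complex, was at 46.5 FPKM in KD cells and 49.5 FPKM in NT. A row of Cpsf2, a subunit of the cleavage complex, was at 40.8 FPKM in KD cells and 49.8 FPKM in NT. Npat, the coactivator of the histone clusters, was at 15.2 FPKM in KD cells and 15.7 FPKM in NT, and Lsm11, of the U7 particle, at 2.36 FPKM in KD cells and 3.10 FPKM in NT.

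Histone variants outside the clusters had far higher FPKM than the clustered genes. Variant genes such as those of H3.3 and H2A.Z give polyadenylated mRNA and the classical clustered genes do not. Whether the library selected poly(A)+ RNA is not stated. The part of such a selection in the ratios below was not tested. The 12 variant rows summed to 2680.2 FPKM in KD cells and 2767 FPKM in NT, which was 17.99 times the clustered sum in the KD and 26.4 times in NT. None of 11 tested variants was called, against 1.15% of all tested rows, and their median difference was -0.074. H2afz, which encodes H2A.Z, was at 752 FPKM in KD cells and 804 FPKM in NT. H3.3 comes from H3f3b, at 714 FPKM in KD cells and 752 FPKM in NT, and from H3f3a, at 630.5 FPKM in KD cells and 605 FPKM in NT. H2afj, an H2A variant gene next to Hist4h4 on chromosome 6, was at 36.6 FPKM in KD cells and 23.6 FPKM in NT, with a q of 0.636 from Cuffdiff in the authors' deposited table.

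Histone chaperones carry new histones to chromatin. Of 18 tested rows none was called, against 1.15% of all tested rows, with a median difference of 0.096 and 13 rows above 0 and 5 below. Nap1l1, an H2A-H2B chaperone, was at 362 FPKM in KD cells and 382 FPKM in NT, and Nasp, which holds H3-H4, at 285 FPKM in KD cells and 260.2 FPKM in NT. A merged row of Chd8 and Supt16, a subunit of FACT, was at 145 FPKM in KD cells and 133 FPKM in NT. The lowest difference, -0.73, was that of a merged row of Cabin1, a partner of the H3.3 chaperone HIRA, and its neighbour Susd2, at 22.3 FPKM in KD cells and 37.7 FPKM in NT. It was not called, with a q of 0.139 from Cuffdiff in the authors' deposited table.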

How the data were processed

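RNA sequencing of TBV2 ES cells, 3 KD clones and 1 NT control, was analysed from 1 table. The submitters' processing notes name TopHat, Cufflinks, Cuffdiff and the build mm9, without versions, and no source used here gives the annotation, scaling or pooling options. The deposited FPKM columns hold 1 value per gene for a treated and a control condition, per the file headers, taken as the KD and NT. The p-values and q-values were deposited by the authors in that Cuffdiff output. No test was run here, because each condition has 1 FPKM. Log2 differences used a pseudocount of 1 FPKM, which understates the change of low genes, and summaries used rows with at least 1 FPKM in either condition. Coordinates in mm9 are as deposited, and transcripts and promoters came from GENCODE M21 and RefSeq on GRCm38. Without a protein table, no protein is printed.

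Strand was read from the order of the rows, and this check and the 100-base limit for transcript ends were chosen after seeing the data. Named members were all H1 rows with at least 1 FPKM, the 3 most abundant rows of each core type, the 5 highest and 5 lowest differences, and all Hist2 to Hist4 rows at that level; of other lists, the 3 most abundant. Remaining genes were named after their values were seen. The members and lists were chosen with earlier results of these data known. On simulated data only the log2 difference without a pseudocount was checked, not the setting with a pseudocount of 1 FPKM. Python 3.11.15, numpy 2.4.6, pandas 2.3.3 and matplotlib 3.10.9 were used.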

Additional observations from a re-analysis of the deposited data

How the results depend on the processing

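The median difference of the histone rows was 0.23 and stayed above 0 under all 12 alternatives, of which 9 moved it by less than 0.1. It was 0.34 with a pseudocount of 0.01 FPKM and 0.056 over all 73 rows without an FPKM minimum. Over the 7 rows with at least 5 FPKM in either condition it was 0.71. Among those 7, Hist1h4i, Hist1h3c, Hist2h3c1 and Hist1h1c reached 5 FPKM only in the KD, which favours a positive difference. Over all table rows the median was 0 without a minimum and 0.0054 at 5 FPKM. Rows with a difference of 1 or more numbered 5 with a pseudocount of 0.1 or 0.01 FPKM, namely Hist1h3h, Hist1h2bc, Hist1h1c, Hist1h2be and the other-strand row of Hist1h3g, where 5.83% and 6.18% of all rows passed. They numbered 0 at a minimum of 5 FPKM, 0 among rows on the strand of their symbol and 0 among rows with at least 50% unique 50-base stretches; the last 2 settings were chosen after seeing the data. Rows at -1 or less numbered 2 with either smaller pseudocount, Hist1h2bj and Hist1h4f, where 2.87% and 3.22% of all rows passed. Rescaling the KD by the median ratio or the upper quartile gave a median difference of the histone rows of 0.227 and 0.218. The authors' calls stayed at 0 among rows with status OK and became 2 at an unadjusted p of 0.05 or less. Leaving out single clones could not be done, because the KD value combines them. No paired analysis was possible because the deposited table has 1 value per condition. The number of reads behind each value is not known, so no counting interval could be given for low rows.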
